A study of Homo sapiens with 31 samples.

Results

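Of the 31941 nuclear miRNA–target interactions listed for Huh-7.5 cells, 1447 were read more than once. They were chosen by their cluster size, N, the number of individually cloned chimeric reads that make up an interaction: every interaction with N of at least 2 on a chromosome other than the mitochondrial one was taken. These repeated interactions were 4.53% of the nuclear interactions (95% Wilson interval 4.31 to 4.76) and 4.42% of all 32712 interactions in the table, and they held 4036 of the 34530 nuclear chimeric reads. They were set against the 30494 nuclear interactions with N of 1, called single-read interactions. Because N selected them, N is given as a description only, with no test.

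Huh-7.5 cells are a long-cultured line of human hepatoma origin. Their Argonaute (AGO) proteins were cross-linked with ultraviolet light to the RNA they held and purified, and a miRNA that became ligated to the RNA fragment beside it was read as 1 chimeric sequence. The 31 libraries were 12 CLEAR-CLIP libraries and 19 standard AGO CLIP libraries. CLEAR-CLIP is the variant of CLIP set up to recover chimeras, and HSPC117 (RTCB) is a cellular RNA ligase. The CLEAR-CLIP libraries came from cells with HSPC117 depleted by siRNA (2, low RNase A, no ligase), overexpressed (2 each with low RNase A, high RNase A and RNase T1, no ligase) or at its own level (2 with ligase and 2 without, low RNase A). The standard libraries came from cells given an LNA against miR-122 (4), miravirsen (4) or mock treatment (4), or had titles that name no treatment (7). All shared the cell line and, by the sample labels, the cut of complexes at 130 to 180 kD. The paper's supplement lists a narrower cut for these libraries. The table pools all libraries, and no interaction could be traced to 1 of them. There were therefore no replicates, treatments were not compared, and p-values and intervals below cover only the sampling of interactions. Interactions at the same gene or place are also not independent of each other. Of the marker genes looked up, 9 of the 16 for hepatocytes and hepatoma had repeated interactions (22 in all, 10 of them at AFP) and 15 had single-read ones (228). Markers of neurons, immune cells and fibroblasts had 0 repeated interactions and 9 single-read ones. Over all nuclear interactions 4.53% were repeated, so 0 among so few is uninformative. The marker counts are a description and were not tested.

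A miRNA guides AGO to RNA mainly through its seed, the bases near its 5′ end, and pairing of its 3′ part can add to this. A site that pairs with the seed without a gap is called canonical here when it is an 8mer, 7mer-m8, 7mer-A1, 6mer or offset 6mer. Sites in 3′-UTRs are the best known route to repression of mRNAs, and sites in coding sequence and introns are also bound by AGO. In liver cells miR-122 is the defining miRNA, while the miR-17 family is known for its abundance in proliferating and tumour cells.

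The repeated interactions used 130 miRNAs and the single-read interactions 525. A mature sequence in RefSeq (GRCh38.p14 tables) matched 104 of those 130 by name, which covered 84.0% of the repeated interactions. The sequences shown are those of the miRNAs on which the results turn, 5′ to 3′, with the seed (bases 2 to 8) in capitals. The first 4 share the miR-17 seed and the next pair shares the miR-92 seed.
miR-17-5p: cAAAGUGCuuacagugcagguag
miR-93-5p: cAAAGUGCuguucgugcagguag
miR-20a-5p: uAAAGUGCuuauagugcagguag
miR-106b-5p: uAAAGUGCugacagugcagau
miR-92a-3p: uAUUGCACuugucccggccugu
miR-25-3p: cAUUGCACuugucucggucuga
miR-23a-3p: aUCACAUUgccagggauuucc
miR-122-5p: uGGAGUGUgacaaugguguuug
miR-574-5p: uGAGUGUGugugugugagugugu
miR-4279: cUCUCCUCccggcuuc
miR-19a-3p: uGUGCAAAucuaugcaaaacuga
In miR-574-5p, 21 of the 23 bases were G or U and the GU step occurred 9 times. miR-4279 was the shortest of those shown, with 16 bases.

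Most repeated interactions had just passed the threshold. N was 2 in 960 of them, 3 in 239, 4 or 5 in 164 and 6 or more in 84, and the largest N was 20. The 15 with the most reads lay in introns (8 interactions), outside genes (5), in a 3′-UTR (1) and in coding sequence (1), with ties at 10 reads taken in order of predicted duplex energy. Coordinates are in hg18 as listed.

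**Figure D1:**
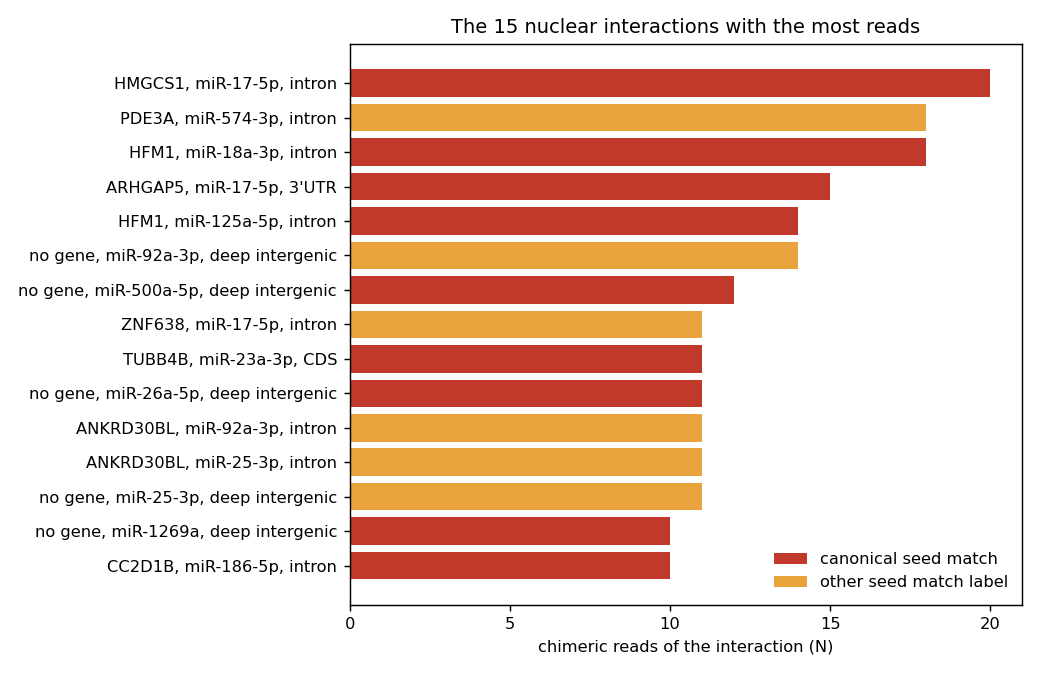
Chimeric reads (N, x axis) of the 15 repeated interactions with the most reads, each named by gene, miRNA and transcript region. Red bars have a canonical seed match and orange bars another seed match label; the reads run between 10 and 20, and 9 of the 15 are canonical.

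The largest N, 20, was that of miR-17-5p in an intron of HMGCS1, a gene of the mevalonate route to cholesterol (chr5:43327602-43327677, minus strand). It had an 8mer match with pairing predicted at miRNA positions 2 to 11 and 16 to 22. The interaction of miR-17-5p in the 3′-UTR of ARHGAP5 had 15 reads and a 7mer-m8 match (chr14:31698157-31698232). In coding sequence, TUBB4B, a beta-tubulin gene, was read 11 times with miR-23a-3p at an 8mer (chr9:139257502-139257577).

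Others among the 15 lay where many miRNAs were ligated. An intron of HFM1, which encodes a meiotic DNA helicase, was read 18 times with miR-18a-3p and 14 times with miR-125a-5p (chr1:91625582-91625657 and chr1:91625622-91625697), at a place with 36 different miRNAs. An intron of PDE3A, a phosphodiesterase gene, was read 18 times with miR-574-3p at a place with 26 miRNAs (chr12:20595643-20595718). A region outside genes on chromosome 16 was read 14 times with miR-92a-3p at a place with 22 miRNAs (chr16:33870049-33870124). By contrast, CC2D1B (intron, miR-186-5p, 10 reads) and a region on chromosome 3 outside genes (miR-26a-5p, 11 reads) had 1 miRNA each.

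One of the 15 was paired along its whole length. The region outside genes read 10 times with miR-1269a (chr4:66825157-66825232) had an 8mer and predicted pairing at every position between 2 and 22, with a minimum free energy (MFE) of −43.7. The MFE is RNAhybrid's predicted energy of the duplex, lower for a more stable one, in a unit the table does not name. The gene of miR-1269a also lies on chromosome 4 in RefSeq, and the positions were not compared because the builds differ. Whether this region lies at that gene, rather than at a separate target, was therefore not tested.

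Canonical seed matches were more frequent among repeated interactions. They were found in 721 of 1447 repeated interactions (49.8%, 47.3 to 52.4) and in 9103 of 30494 single-read interactions (29.9%, 29.3 to 30.4), an odds ratio of 2.33 (2.10 to 2.59, p = 5.2e-54, two-sided Fisher's exact test). The difference was widest for the strongest type: 8mers made up 16.5% of repeated and 6.39% of single-read interactions (odds ratio 2.90, adjusted exact p = 8.2e-37, Fisher's exact test with Benjamini-Hochberg adjustment). The 7mer-m8 (13.1% against 7.42%, adjusted exact p = 4.8e-12) and the 7mer-A1 (7.67% against 5.15%, adjusted exact p = 0.00024) were also more frequent. The 6mer (6.63% against 5.78%) and the offset 6mer (5.94% against 5.12%) did not pass (adjusted exact p = 0.21 for each).

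Imperfect seeds made up a smaller share of repeated interactions. Each interaction carries 1 seed label, the strongest match, so a higher canonical share leaves less for all other labels. Whether imperfect or missing seeds were rarer among interactions without a canonical match was not tested. Matches with 1 mismatch made up 19.4% of repeated and 30.2% of single-read interactions, and matches with a bulge 13.1% and 17.1% (p = 6.1e-20 and 5.6e-05, Fisher's exact test). The mismatched 6mer fell to 2.00% of repeated interactions, against 4.65% of single-read ones (adjusted exact p = 1.4e-06), whereas the mismatched 8mer (4.77% against 4.03%, adjusted exact p = 0.21) did not pass. Regions with no seed match were 12.0% of repeated and 15.1% of single-read interactions (odds ratio 0.766, adjusted exact p = 0.0032). That call was lost without miR-17-5p (odds ratio 0.845, adjusted exact p = 0.10), and the odds ratio was 1.16 for N of at least 3, where miR-574-5p was a larger part of the set. Without miR-574-5p the odds ratio was 0.526 (adjusted exact p = 3e-11), and stratified by miRNA it was 0.648.

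With all miRNAs and regions pooled, the canonical share differed most between N of 1 and N of 2. Just outside the threshold, at N of 1, the share was 29.9%, and just inside, at N of 2, it was 49.4% (46.2 to 52.5). It was 51.5% at N of 3, 51.2% at 4 or 5 and 47.6% (37.3 to 58.2, n = 84) at 6 or more, with overlapping intervals. Without miR-574-5p the shares at N of 2, 3, 4 or 5 and 6 or more were 51.1%, 60.0%, 61.9% and 55.6%. In 3′-UTRs alone it was higher again past N of 2: the share was 39.7% at N of 1, 61.5% (54.7 to 67.9) at 2, 75.5% at 3 and 85.7% (70.6 to 93.7, n = 35) at 4 or 5, then 70.0% (48.1 to 85.5, n = 20) at 6 or more.

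**Figure D2:**
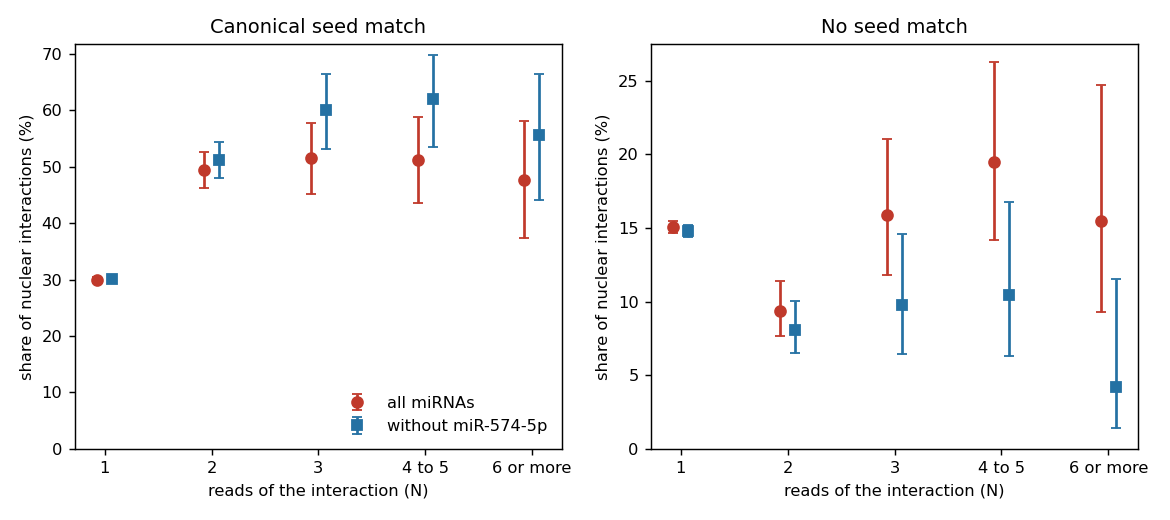
Share of nuclear interactions with a canonical seed match (left) and with no seed match (right), by the number of reads N, with 95% Wilson intervals. Red circles are all miRNAs and blue squares leave out miR-574-5p; the canonical share is 29.9% at N of 1 and between 47.6% and 51.5% at every higher class for all miRNAs.

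Predicted duplexes were more stable in repeated interactions. The mean MFE was −22.5 ± 5.61 in repeated and −19.4 ± 5.33 in single-read interactions (SD over interactions), a difference of −3.17 (−3.46 to −2.87). Pairing from miRNA position 9 onward averaged 9.41 ± 2.38 positions in repeated and 8.81 ± 2.54 in single-read interactions, a difference of 0.60 (0.48 to 0.73). Both differences had p = 1e-05 in a two-sided permutation test, the smallest that 100000 resamples can give. In the study's predictions, pairing was forced at seed positions for seed matches and for mismatched or bulged variants of them. The MFE and the predicted seed pairing therefore partly follow the seed label and are not independent of it.

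The extra pairing was not spread evenly along the miRNA. Position 2 was paired in 68.6% of repeated and 56.5% of single-read interactions, and position 17 in 81.1% and 70.9%. At positions 9 to 11 the order was turned, with 54.8% of repeated and 58.3% of single-read interactions paired at position 10.

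**Figure D3:**
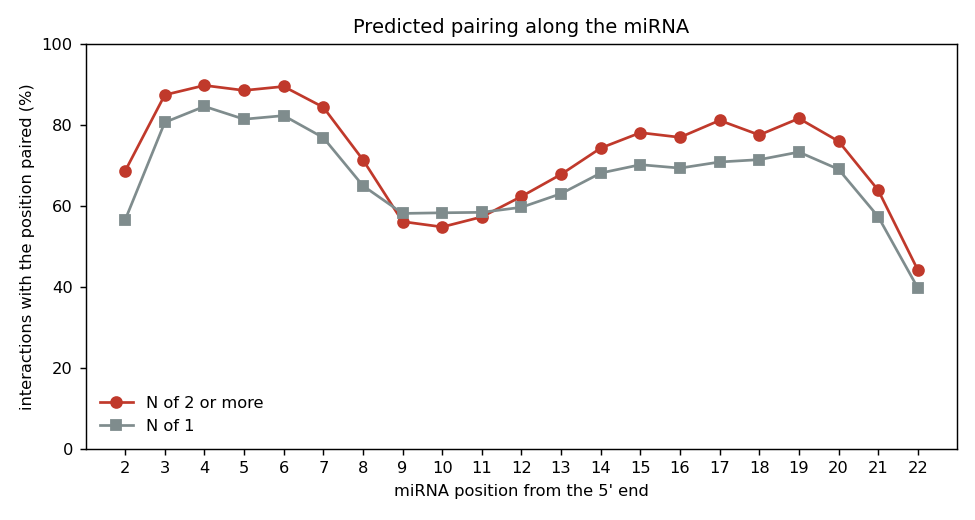
Share of interactions (y axis, %) in which each miRNA position, counted from the 5′ end, is predicted to be paired, G–U wobbles included. Red circles are repeated and grey squares single-read interactions; the red line lies above the grey one at the seed and from position 12 onward and below it at positions 9 to 11.

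The study had sorted the duplex structures into classes by k-means, and 5 of the 7 classes differed in share. Since they are built from the predicted pairing, these classes also partly follow the seed label. Class 6, with pairing along most of the miRNA, held 362 repeated and 5959 single-read interactions (odds ratio 1.37, adjusted exact p = 1.2e-06). Class 5B, in which pairing resumes from position 12 or 13 after an unpaired stretch, made up 19.4% of repeated and 14.0% of single-read interactions (adjusted exact p = 1.8e-07). Class 4, with little seed pairing and no canonical match, made up 6.70% of repeated and 11.2% of single-read interactions (adjusted exact p = 1.1e-07), class 1, which is open beyond position 17, made up 8.91% and 13.4% (adjusted exact p = 5.3e-07), and class 5A made up 8.36% and 11.1% (adjusted exact p = 0.0015). Classes 2 (odds ratio 1.03) and 3 (1.04) did not pass (adjusted exact p = 0.67 for each).

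Canonical matches began further into the target region in repeated interactions. The target region is 75 nt long and its first base is the first of the merged reads. In a repeated interaction, positions are therefore counted from the earliest start among several reads, which can itself move a match further in. How much of the difference comes from this was not tested. Canonical matches began in the first 37 positions in 76.1% of the 721 repeated and 83.4% of the 9103 single-read interactions that had one (odds ratio 0.634, 0.530 to 0.759, p = 1.6e-06, Fisher's exact test). Merged reads spanned a median of 56 nt in repeated and 49 nt in single-read interactions, and 134 repeated interactions but only 1 single-read interaction spanned more than 75 nt. Among interactions of at most 75 nt the shares were 84.2% and 83.4% (odds ratio 1.06, 0.850 to 1.32, exact p = 0.66), so the share before that position no longer differed detectably. The median start in these shorter interactions was still position 27 (quartiles 22 and 33) in repeated and 22 (17 and 31) in single-read interactions, with no test. The canonical share itself kept an odds ratio of 2.23 in these shorter interactions.

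By transcript region, repeated interactions were richer in 3′-UTRs and poorer in introns. The 3′-UTR held 309 of the repeated interactions (21.4%, 19.3 to 23.5) and 11.8% of the single-read ones (odds ratio 2.04, adjusted exact p = 9.7e-23). Introns held 445 (30.8%, 28.4 to 33.2) against 40.6% (odds ratio 0.650, adjusted exact p = 2.8e-13), and regions far from genes 296 (20.5%) against 24.3% (odds ratio 0.800, adjusted exact p = 0.0023). Coding sequence held 208 (14.4%) against 12.5% and did not pass (odds ratio 1.17, adjusted exact p = 0.093), but it passed when the test was stratified by miRNA (Mantel–Haenszel odds ratio 1.27) or left out miR-574-5p (1.28, adjusted exact p = 0.0053). Exons without a coding or UTR label, among them those of noncoding RNAs, held 47 (3.25%) against 1.24% (odds ratio 2.68, adjusted exact p = 8.6e-08). Within that label MALAT1, a nuclear long noncoding RNA, had 7 repeated interactions, as had a further long noncoding RNA, and SNHG1, a host gene of small nucleolar RNAs, had 3.

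The canonical share was higher among repeated interactions in each of the larger regions. In 3′-UTRs it was 67.0% of 309 repeated and 39.7% of 3586 single-read interactions (odds ratio 3.08), and in coding sequence 58.7% of 208 and 30.7% of 3814 (3.20). In introns it was 42.9% of 445 and 30.0% of 12376 (1.75), and far from genes 39.5% of 296 and 24.3% of 7415 (2.04). All 4 differences had p of at most 1.7e-08 by Fisher's exact test.

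A small number of miRNAs made up most of the repeated interactions. The 10 with the most repeated interactions held 59.1% of these, and the same 10 held 39.9% of single-read interactions. They were picked by their repeated interactions, so a higher share there is partly built in and was not tested. As few as 8 miRNAs were enough to reach 50% of the repeated interactions. Of 82 miRNAs with at least 50 nuclear interactions, 5 had a higher share of repeated interactions (6.1% of those tested) and 6 a lower one (7.32%), by Fisher's exact test with Benjamini-Hochberg adjusted p under 0.05.

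The highest shares were those of miR-574-5p and miR-4279. Of these, miR-574-5p had 109 repeated of 396 nuclear interactions (27.5%, 23.4 to 32.1, odds ratio 8.57, adjusted exact p = 1.7e-52), against 4.53% over all miRNAs, and miR-4279 had 29 of 136 (21.3%, 15.3 to 29.0, odds ratio 5.81, adjusted exact p = 6.9e-11). miR-17-5p contributed the most repeated interactions, 208 of 2448 (8.50%, odds ratio 2.12, adjusted exact p = 2e-17). miR-320a had 119 of 1762 (6.75%, odds ratio 1.57, adjusted exact p = 0.00025) and miR-92a-3p 93 of 1477 (6.30%, odds ratio 1.45, adjusted exact p = 0.014).

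Lower shares were found for miR-19a-3p, with 16 of 1189 (1.35%, odds ratio 0.280, adjusted exact p = 1.9e-08), miR-374a-5p, with 9 of 574 (1.57%, adjusted exact p = 0.0021), and miR-16-5p, with 30 of 1168 (2.57%, adjusted exact p = 0.0065). miR-29a-3p had 0 repeated of 135 interactions and miR-193a-3p 0 of 128, which allow shares of up to 2.77% and 2.91% (upper Wilson bounds). miR-33a-5p had 2 of 215. Of these 11 calls, miR-17-5p, miR-574-5p and miR-19a-3p were the 3 made with N of at least 3, where miR-4279, with a single interaction of 3 reads, had an odds ratio of 0.584. Without miR-17-5p the calls of miR-29a-3p, miR-193a-3p and miR-33a-5p were lost (adjusted exact p = 0.061, 0.061 and 0.071), with odds ratios of 0, 0 and 0.213 beside 0, 0 and 0.197 with it. Without genes of 20 or more interactions the call of miR-92a-3p was lost (adjusted exact p = 0.055), with an odds ratio of 1.39 beside 1.45.

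**Figure D4:**
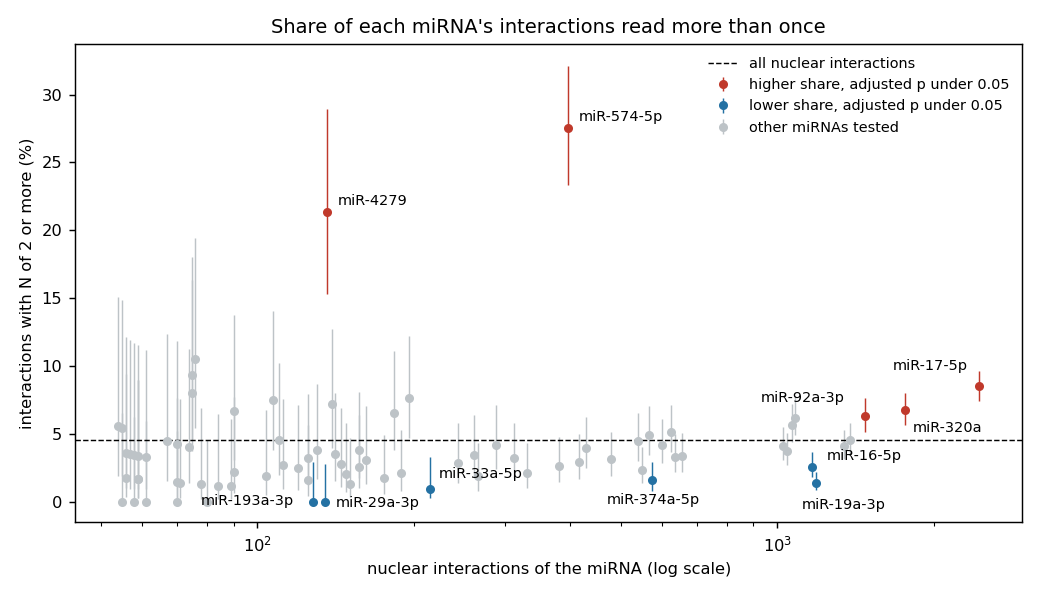
Share of each miRNA's nuclear interactions that were read more than once (y axis, %, 95% Wilson intervals) against the number of its nuclear interactions (x axis, log scale), for the 82 miRNAs tested. Red and blue points passed the test with a higher or lower share; miR-574-5p (27.5%) and miR-4279 (21.3%) lie far above the dashed line at 4.53%.

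Canonical matches were rare in the repeated interactions of miR-574-5p. They were found in 1 of 109 (0.917%), against 15 of its 287 single-read interactions (5.23%), while 61 of the repeated interactions (56.0%) had no seed match, against 41.8% of its single-read ones. They made up 35.3% of the 173 repeated interactions without a seed match. Introns held 75 (68.8%), against 44.6% of its single-read interactions. N was 3 or more in 76 of the 109 (69.7%), against 30.7% of the repeated interactions of all other miRNAs. Their predicted duplexes had a mean MFE of −16.3 in repeated and −18.8 in its single-read interactions, and their merged reads were short, with a median of 37 nt. The strongest lay outside genes on chromosome 9 (chr9:107818612-107818687) and in an intron of NFIA, a transcription factor gene (chr1:61356940-61357015), with 10 reads each and no seed match. Introns of BCAS3 (9 reads), DPYD, a pyrimidine catabolism gene (8), and SOX5, a transcription factor gene (7), followed. With miR-574-5p left out, the canonical share of the repeated interactions was 53.8%, against 30.1% of single-read ones.

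For most other miRNAs the repeated interactions were richer in canonical matches than the single-read interactions of the same miRNA. Of the 18 miRNAs with at least 20 repeated interactions, 15 had a higher share that passed the test (83.3%, Fisher's exact test with Benjamini-Hochberg adjustment). miR-17-5p had 75.5% among 208 repeated and 39.9% among 2240 single-read interactions (adjusted exact p = 4.9e-22). miR-23a-3p had 74.6% of 67 and 29.1% of 1016 (adjusted exact p = 1.4e-12), and miR-130a-3p 76.0% of 25 and 32.3% of 576 (adjusted exact p = 9.1e-05). miR-122-5p, the liver miRNA, had 61.7% of 60 and 47.4% of 1006 (adjusted exact p = 0.043). Its values pool all libraries, among them 4 in which an LNA blocked this miRNA and 4 with miravirsen, which inhibits it. In the paper's read counts, either treatment gave more chimeras in total than mock treatment did, but from more unique reads. As a fraction of unique reads, the paper lists the same value for miravirsen as for mock treatment and a slightly higher one for the LNA. What the blocking did to the repeated or canonical shares of miR-122-5p was not tested. The 3 miRNAs that did not pass had lower shares among repeated interactions: miR-574-5p, miR-4279 (20.7% of 29 and 38.3% of 107, adjusted exact p = 0.088) and miR-30a-5p (13.6% of 22 and 20.1% of 633, adjusted exact p = 0.59). The mean MFE was lower among repeated interactions for 16 of the 18, the exceptions being miR-574-5p and miR-4279.

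**Figure D5:**
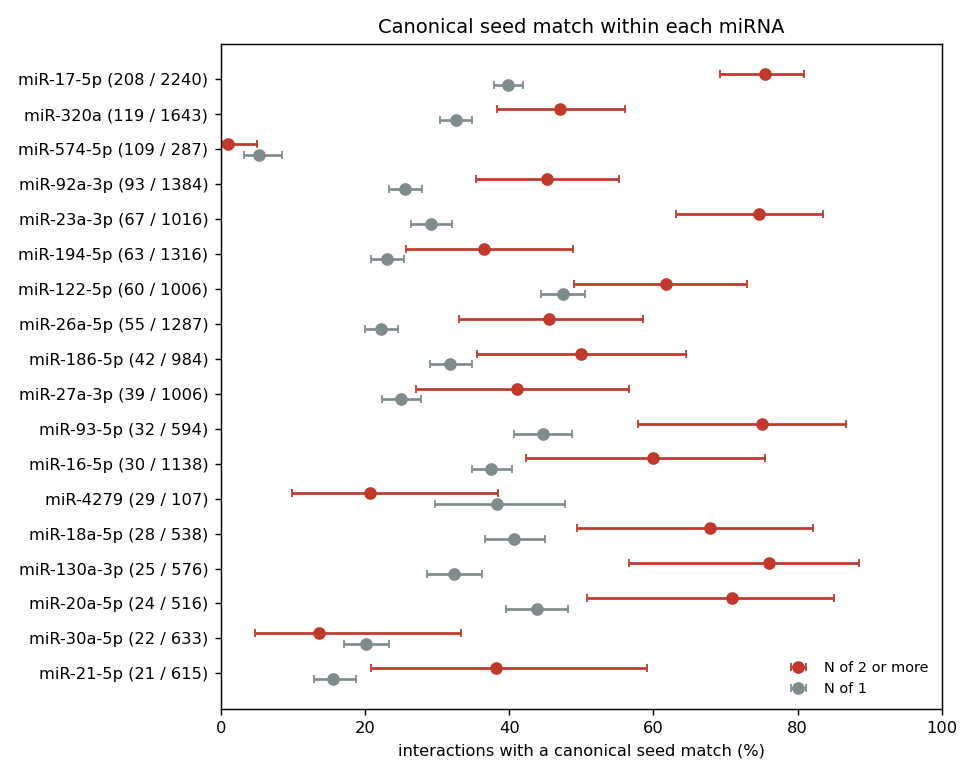
Share of interactions with a canonical seed match (x axis, %) for the 18 miRNAs with at least 20 repeated interactions, with 95% Wilson intervals; brackets give the numbers of repeated and single-read interactions. Red points (repeated) lie right of grey points (single-read) for 15 miRNAs and left of them for miR-574-5p, miR-4279 and miR-30a-5p.

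The 1447 repeated interactions named 828 genes. Of these, 701 had 1 repeated interaction, 88 had 2 and 39 had 3 or more, and 706 of the 828 also had a single-read interaction. ANKRD30BL had the most, 22. HFM1, PDE3A and AFP had 10 each, MALAT1 and a further long noncoding RNA 7 each, HMGCS1, RPLP1 and SLCO5A1 6 each, and ARHGAP5 had 5. Of 334 genes with at least 10 nuclear interactions, 6 had a higher share of repeated ones (1.8% of those tested) and 0 had a lower share (0%), by Fisher's exact test with adjusted p under 0.05; at an unadjusted p under 0.05 there were 17, with 0 lower.

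Many of the interactions behind these calls lay where several miRNAs were ligated. ANKRD30BL had 22 repeated of 81 interactions (27.2%, adjusted exact p = 2.2e-09), and the 22 lay in introns, came from 19 miRNAs and included 2 canonical matches. PDE3A had 10 of 35 (28.6%, adjusted exact p = 0.00036) and HFM1 10 of 55 (18.2%, adjusted exact p = 0.011), each at 1 place. RPLP1, a ribosomal stalk protein gene, had 6 of 11 (54.5%, adjusted exact p = 0.00036), SLCO5A1, a solute carrier gene, 6 of 19 (31.6%, adjusted exact p = 0.011) and AFP, the fetal plasma protein alpha-fetoprotein, 10 of 57 (17.5%, adjusted exact p = 0.012). Without places read with 3 or more miRNAs, 0 of 309 genes passed and 8 had an unadjusted p under 0.05. AFP, with an odds ratio of 4.51, also lost its call for N of at least 3 (6.72, adjusted exact p = 0.071) and without miR-17-5p (4.07, adjusted exact p = 0.075). SLCO5A1, with 9.76, lost it for N of at least 3 (9.67, adjusted exact p = 0.45). Without places read with 3 or more miRNAs, the odds ratio of AFP was 3.57. These settings leave fewer repeated interactions, and why the calls were lost was not tested.

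Repeated interactions overlapped other interactions more often than single-read ones did. Their 75-nt region overlapped another interaction on the same strand in 34.1% of cases, against 9.85%, and 18.7% of them, against 3.70%, lay at a place with 3 or more miRNAs. The canonical share differed with the number of miRNAs at the place. It was 48.6% of repeated and 29.5% of single-read interactions where 1 miRNA was found, 66.8% and 38.7% where 2 were found, and 33 of 141 and 55 of 549 interactions where 5 or more were found. These overlaps are descriptions, with no test. The most crowded place by repeated interactions lay outside genes on chromosome 16 (chr16:33870000-33870183), with 11 of them from 10 miRNAs and 0 canonical matches among them.

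Some places were read repeatedly by several miRNAs of 1 seed. There were 44 such places with 91 repeated interactions, 65 of them canonical (71.4%), and 27 places belonged to the miR-17 seed shown above. For comparison, 49.8% of all repeated interactions were canonical, and 75.8% of the 277 repeated interactions of the miR-17 seed. Interactions at 1 place also share target sequence and are not independent. At the HMGCS1 intron miR-17-5p, miR-20a-5p and miR-93-5p had 20, 5 and 4 reads, each at an 8mer. In the coding sequence of VTA1 the same miRNAs had 6, 7 and 4 reads, each at a 7mer-m8 (chr6:142566826-142566906). In the 3′-UTR of SERTAD3 miR-92a-3p and miR-25-3p had 4 reads each at an 8mer, and in the 3′-UTR of ZNF91 miR-16-5p and miR-15a-5p had 6 and 3 reads at a 7mer-m8. Reads that fitted several miRNAs were given to 1 of them at random when the table was made, and the part of this in the shared places was not tested.

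Gene lists are described by counts, with no test, beside 4.53% of repeated interactions over all nuclear interactions. Secreted hepatocyte proteins had 21 repeated interactions at 10 of 23 genes with any interaction (9.01% of their interactions, and 6.25% without AFP, which held 10). Among them were AFP with miR-122-5p (5 reads, 6mer-A1, coding sequence), AHSG, the glycoprotein fetuin, with miR-320a (3), FGB, the fibrinogen beta chain, with miR-26a-5p (3) and HPX, the haem carrier hemopexin, with miR-103a-3p (2 reads, 8mer). Cholesterol and fatty acid genes had 17 at 9 of 27 genes (8.67%). HMGCS1 held 6 of the 17, and without it the share was 7.05%. ABCA1, the cholesterol exporter, had 4 reads with miR-33a-5p at an 8mer of its 3′-UTR (chr9:106586213-106586288, MFE −31.5), which was 1 of only 2 repeated interactions of that miRNA. ACLY, which makes acetyl-CoA for lipid synthesis, had 4 reads with miR-27a-3p, and FDPS, of the mevalonate pathway, 3 with miR-15a-5p.

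Cytoskeleton and motor genes had 9 repeated interactions at 5 of 21 genes (8.65%). TUBB4B held 4 of the 9, among its 11 interactions, and without it the share was 5.38%, near the 4.53% over all. The spectrin SPTAN1 had 5 reads with miR-320a, the dynein heavy chain DYNC1H1 3 with miR-320a at an 8mer and the intermediate filament gene VIM 2 with miR-17-3p. The listed long noncoding RNAs had 11 at 3 of 9 genes (15.1%), 7 of them at MALAT1. The list did not hold the further RNA with 7 mentioned above, nor OIP5-AS1, with 3 at 1 place. The strongest at each gene were MALAT1 with miR-92a-3p (5 reads, 7mer-m8), SNHG5 with miR-26b-5p (4) and SNHG1 with miR-106b-5p (2).

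Genes of the silencing machinery had 6 repeated interactions at 3 of 22 genes (5.88%, close to the 4.53% over all), 5 of them canonical. TNRC6A held 3 of the 6 at 1 place, and without that gene the share was 3.90%. TNRC6A, whose protein recruits the deadenylases for AGO, had 4 reads with miR-374a-5p at an 8mer in its 3′-UTR, and AGO1 had 3 with miR-103a-3p at an 8mer paired between positions 2 and 17. TNRC6B had 2 with miR-574-5p in an intron. Translation genes had 5 at 4 of 23 genes (6.94%, and 4.76% without EIF4G2, near the 4.53% over all). EIF4G2, an initiation factor, was read 9 times with miR-17-5p, and NPM1, EIF4A2 and RPL3 were read 2 times each. Cell cycle and p53 genes had 3 at 3 of 21 genes (4.55%): the topoisomerase TOP2A (4 reads, miR-186-5p), the kinase WEE1 (3, miR-17-5p) and the proliferation marker MKI67 (2, miR-20a-5p), all at canonical matches. Splicing genes and helicases had 3 at 2 of 22 genes (3.13%, and 1.16% without DDX17), the helicase DDX17 with miR-17-5p and the splicing regulator HNRNPC with miR-23a-3p, 3 reads each.

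The strongest interaction at a gene for the other leading miRNAs gave further examples. BMP2, a secreted growth factor, was read 10 times with miR-194-5p in its 3′-UTR at a 5mer. PPP1CC, a catalytic subunit of protein phosphatase 1, was read 9 times with miR-26a-5p in coding sequence at a mismatched 8mer. CDCA3, a cell division gene, was read 8 times with miR-320a in its 3′-UTR with no seed match. SNORD29, a small nucleolar RNA gene, was read 6 times with miR-27a-3p at a mismatched 8mer, and RTCA, which encodes an RNA cyclase, 5 times with miR-122-5p in coding sequence at an 8mer.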

How the data were processed

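Chimeric reads of 31 libraries had been reduced by the authors to 1 deposited table of interactions mapped to hg18 with Bowtie (version not given in the sources used here). CASAVA 1.8.2 is also named in the submitters' processing notes. Overlapping fragments of the same miRNA had been merged, a read that fitted several miRNAs had been assigned to 1 at random, and the strongest seed match had been sought in the 75 nt from the first merged base. The deposited N is a count of individually cloned reads, not normalized, after fragments with several places in the genome had been dropped and PCR duplicates collapsed. The deposited MFE is a score from RNAhybrid, which the authors ran with pairing forced at the seed where a match or variant was present. The depth of each library was not used here, since the table pools them. Coordinates are printed as listed, and no statement on their counting base was found.

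Each interaction counted once. Shares were compared by two-sided Fisher's exact tests and means by permutation tests (100000 resamples), with Benjamini–Hochberg adjustment over all seed types (22), region labels with at least 50 interactions (12), classes (7), miRNAs with at least 50 (82) or genes with at least 10 (334), in Python 3.11.15 with scipy 1.17.1 and statsmodels 0.14.6. Intervals are 95% and cover counting error only. A place is a run of overlapping 75-nt regions on 1 strand. Alternatives changed the N threshold, the minimum numbers of interactions, the single-read set, stratification by miRNA, and the miRNAs, genes or places kept. The methods were tested on simulated data. Interactions, lists and tests were chosen with earlier results of these data known. The test within single miRNAs, the choice of exons without a coding or UTR label as a result of its own, with its alternatives, 4 further alternatives and the gene list counts without a list's leading gene were added after the data were seen.

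The text names the 15 interactions with the most reads, the 10 genes with the most interactions, the strongest interaction at a gene for each of the 10 leading miRNAs, up to 4 genes per list, miRNAs and genes past the test, and places shared by miRNAs of 1 seed. BCAS3, DPYD, SOX5 and the examples among the places shared by a seed were chosen after their values were seen.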

Additional observations from a re-analysis of the deposited data

Results flagged for a closer look

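The odds ratio of a canonical match (repeated over single-read interactions) was compared between each of the 18 miRNAs with at least 20 repeated interactions and all other miRNAs by the Breslow–Day chi-square test, adjusted over the 18. By that chi-square test it was higher for miR-23a-3p (7.15 against 2.22, adjusted p = 0.00031) and miR-17-5p (4.64 against 2.04, adjusted p = 4e-05). It was lower by the chi-square test for miR-4279 (0.420 against 2.39, adjusted p = 0.0013) and miR-574-5p (0.168 against 2.71, adjusted p = 0.0018). Both odds ratios lay below 1, but their intervals included 1 (0.158 to 1.12 for miR-4279, 0.0219 to 1.29 for miR-574-5p). Within each of these miRNAs, the Fisher's exact test did not pass (adjusted exact p = 0.088 for each). miR-574-5p had 1 canonical match among its repeated interactions.

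The same chi-square test between transcript regions, adjusted over 4, gave a higher odds ratio in 3′-UTRs (3.08 against 2.06 elsewhere, adjusted p = 0.0081) and in coding sequence (3.20 against 2.21, adjusted p = 0.024), and a lower one in introns (1.75 against 2.66, adjusted p = 0.0016). Without miR-574-5p these were 3.16, 3.20 and 2.43, and the adjusted p was 0.21 for each of the 4 regions.

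Of the 771 mitochondrial interactions, left out above, 190 had N of at least 2 (24.6%, 21.7 to 27.8), against 4.53% of nuclear interactions. A canonical match was found in 22.6% of these 190 and in 12.4% of the 581 mitochondrial interactions with N of 1.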

How the results depend on the processing

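No paired analysis was possible because the table pools all libraries; for the same reason no library could be left out. Of 233 values of the main results under the alternatives, 218 kept their direction and side of the threshold, or for counts stayed within 1.5 times. The odds ratio of the canonical share lay between 2.04 and 2.79, that of the 8mer between 2.58 and 3.24, that of the intron share between 0.551 and 0.695, and the MFE difference between −3.75 and −2.59. With N of at least 3, the odds ratio of no seed match was 1.16 and that of class 2 was 0.881, 3 miRNAs were called, and 4 of the 5 miRNAs that still had 20 repeated interactions passed the test of the canonical share. With mitochondrial interactions kept, that count was 9 of 18. Without miR-17-5p, no seed match had an odds ratio of 0.845 and lost its call. The coding-sequence share passed with single-read interactions that overlapped no other (odds ratio 1.25), stratified by miRNA (1.27, with class 2 at 0.973), without miR-574-5p (1.28), without miR-574-5p and miR-4279 (1.27, with 6 miRNAs called) and without places with 3 or more miRNAs (1.30, with 0 genes called). With interactions of at most 75 nt the odds ratio of a match near the ligation point was 1.06. The odds ratio of miR-4279 with N of at least 3 was 0.584. Of 166 values for single miRNAs and genes, 31 changed; except for miR-4279, each kept its direction and lost its call. Apart from what the settings themselves change, the cause was not tested. Most repeated interactions had 2 reads, which limits any finer order by N.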
